A study of Homo sapiens with 2 samples.

Results

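The protein-coding zinc finger genes of chromosome 19 whose symbols start with ZNF numbered 249 in GENCODE release 44, of 19970 protein-coding genes on chromosomes 1 to 22 and X. An interaction was assigned to such a gene if either of its 5-kb bins overlapped the gene body or the 10 kb on either side of it. This rule selected 216 of the 678 interactions listed on chromosome 19, out of 49245 in the whole list, and 140 of the 249 genes (56.2%, Wilson 95% interval 50 to 62.2) were reached by at least 1. The same overlap was found for 64.5% of all protein-coding genes and for 48.2% of the 1227 other protein-coding genes of chromosome 19. The share for ZNF genes thus lay between both backgrounds. Genes differed in length, and a longer gene offers more bins: the median was 26.1 kb for the ZNF genes, 13.8 kb for the other genes of chromosome 19 and 27.5 kb for all protein-coding genes.

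Most ZNF genes encode proteins with a row of C2H2 zinc fingers, each of which contacts a few bases of DNA, and many also carry a KRAB domain. The KRAB domain recruits the corepressor TRIM28, and through it the histone methyltransferase SETDB1 and HP1 proteins, to silence chromatin, often at retrotransposons. The genes arose by repeated tandem duplication and stand in clusters of similar sequence, which makes them a demanding place to align reads.

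HiChIP joins chromatin immunoprecipitation to proximity ligation and yields pairs of DNA segments that lay close together on chromatin carrying the precipitated protein. It was done with an antibody against E2A (TCF3) in HAL-01, a leukemia cell line with t(17;19) that expresses TCF3::HLF, a fusion whose DNA-binding domain comes from HLF. The cells stably expressed Cas9GFP and had lost wild-type TCF3 through a guide RNA, and per the methods the knockout line was expanded from diluted cells and checked as clonal. Both replicates were of this 1 condition and were merged by the authors before interactions were called, so no control group, no replicate error and no test of a difference exist here, and nothing below is called particular to the ZNF genes. The list gives for each interaction a contact count (the read pairs joining the bins), a binomial P value from FitHiChIP, which models the contacts expected at that distance and coverage, and the sumCC, which totals the contact counts of adjoining significant bin pairs that were merged. Contact counts of all listed interactions added up to 1268490, those of the ZNF genes to 5072. Intervals on shares and counts cover counting error only and are too narrow. Duplicate read pairs were kept, and genes or interactions that share a bin are not independent of each other.

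HLF binds sites such as the palindrome TTACGTAA and TTATGTAA, which differs from it at 1 base and is not a palindrome. Both were searched on either strand. Exact matches occurred in 9 of the 12 bins around ZNF genes that had 5 or more interactions, bins that were singled out after their values were seen. For the most connected of these bins 1 match each is shown, because the results below return to it. The ZNF83, ZNF675 and ZNF230 bins held a further match each that is not shown. Each line gives 30 bases of hg38, 5′ to 3′ on the strand that reads the motif, with the motif in capitals:
ZNF799 bin, chr19:12412026-12412055, plus strand, 11 interactions: agatatctcccTTACGTAAccatctttctg
ZNF682 bin, chr19:20038716-20038745, minus strand, 10 interactions: tcattgcctggTTATGTAAtcagaagttaa
ZNF83 bin, chr19:52646901-52646930, minus strand, 10 interactions: acagtgacaggTTATGTAAtctataccata
ZNF329 bin, chr19:58118964-58118993, plus strand, 10 interactions: cctctacgcagTTATGTAAgactccatggc
ZNF675 bin, chr19:23515775-23515804, plus strand, 9 interactions: tgacaagaaagTTATGTAAgaaaaccaaag
ZNF155 and ZNF230 bin, chr19:44006478-44006507, minus strand, 8 interactions: gagtgaatgctTTATGTAAaatatacctca
ZNF175 bin, chr19:51586305-51586334, minus strand, 7 interactions: gcacataatggTTATGTAAttggccaagat
The matches in the ZNF682, ZNF83, ZNF230 and ZNF175 bins lay in introns of those genes. The ZNF682 match was 0.775 kb from the annotated start of its gene and the ZNF230 match 3.54 kb. The ZNF329 and ZNF675 matches lay outside annotated genes, and the ZNF799 match lay in an intron of an unnamed protein-coding gene (ENSG00000268870).

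Interactions were spread unevenly over the 249 genes. A total of 109 genes had none, 75 had 1, 45 had 2 to 4, 11 had 5 to 9 and 9 had 10 or more. ZNF254 had the most, with 18, followed by ZNF675 with 15, ZNF155 and ZNF230 with 14 each and ZNF83 with 12. ZNF155 and ZNF230 are neighbors and shared the same 14 interactions, since a bin can lie within 10 kb of several genes: up to 3 members were in reach of 1 listed bin, and 538 of the 2246 bins around ZNF genes lay in the windows of 2 or more. Gene counts are therefore not independent of each other, and 3 of the members are readthrough genes that overlap others. A count of C2H2 fingers in the reference translation (C-x2-4-C-x12-H-x3-5-H) gave a median of 13 (range, 0 to 39) in genes with an interaction and 12 (range, 0 to 26) in genes without, so that finger number was similar in both sets. Gene length was also similar, at medians of 26.7 and 23.1 kb.

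**Figure D1:**
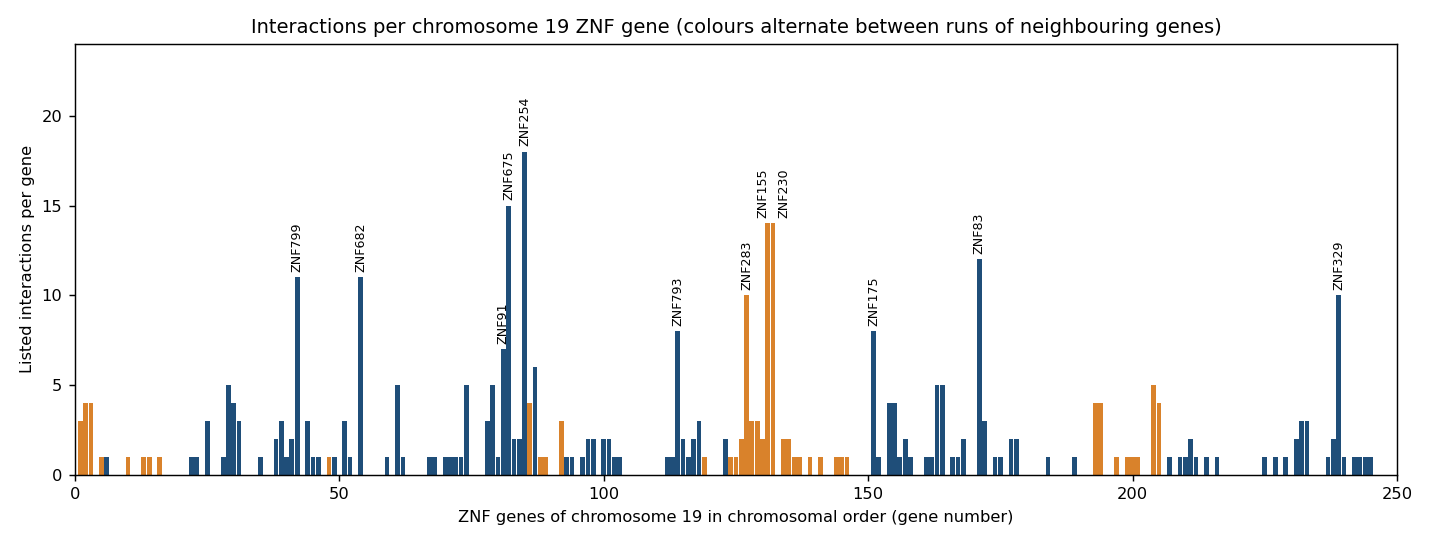
Number of listed interactions (y axis) of each of the 249 ZNF genes of chromosome 19 in chromosomal order (x axis), with colors alternating between runs of genes under 500 kb apart. Single genes stand far above their neighbors, led by ZNF254 with 18, and 109 genes have none.

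Of 10 KRAB corepressor genes, which act with the proteins these genes encode, 9 were reached by an interaction (SETDB1, ATF7IP, CBX1, CBX3, CBX5, MPHOSPH8, TASOR, PPHLN1 and MORC2), and TRIM28 was not. The share was 61.4% (164 of 267) for protein-coding ZNF genes of other chromosomes and 52.6% (10 of 19) for the other C2H2 genes of chromosome 19 with the symbols ZFP, ZSCAN, ZBTB, ZIM, ZIK or MZF1. Of 51 ZNF-named genes of chromosome 19 that are not protein-coding, 22 were reached (43.1%). The intervals of all these shares overlapped with that of the 249 genes, and that of the short corepressor list was wide (59.6 to 98.2). That interval also held the 64.5% of all protein-coding genes. The corepressor genes had a median length of 41.7 kb, against 27.5 kb for all protein-coding genes.

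Runs of ZNF genes with gaps under 500 kb formed 11 clusters of at least 3 genes, which held 238 of the genes and 202 of the 216 interactions. The cluster from ZNF101 to ZNF254, near the centromere and 4.46 Mb long, held the most interactions: 63 (Poisson 95% interval 48.4 to 80.6) among 37 genes, of which 22 were reached. It was also the longest cluster, and with 10 kb on each side it held 14.1 interactions per Mb. The cluster from ZNF575 to ZNF180 was denser, with 30 interactions in 0.975 Mb, or 30.1 per Mb, and 18 of its 23 genes were reached. The small cluster from ZNF554 to ZNF77 had 9 interactions (Poisson 95% interval 4.12 to 17.1) over 5 genes, or 62.0 per Mb. ZNF57 was the gene left out. All 9 reached outside the cluster. Such interactions count in full, so densities of short and long clusters are not directly comparable.

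Other clusters held fewer interactions per gene. The cluster from ZNF175 to ZNF331 had 29 interactions and 22 of 40 genes reached, and that from ZNF264 to ZNF446 at the chromosome end had 18 interactions and 21 of 43 genes reached. The cluster from ZNF653 to ZNF791 had 21 interactions and 16 of 26 genes reached, and that from ZNF565 to ZNF573 had 15 interactions and also 16 of 26. The cluster from ZNF628 to ZNF835 had 11 interactions, led by ZNF470 with 5. The fewest were seen from ZNF414 to ZNF846, with 3 interactions over 14 genes, from ZNF302 to ZNF792 with 4 and from ZNF546 to ZNF780A with 1. The last of these had a contact count of 7, the lowest of all 216, with a binomial p = 0.00084. Isolated genes held few interactions, apart from ZNF507 with 6 and ZNF536 with 4, and ZNF296, ZNF541, ZNF114 and ZNF473 had none.

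**Figure D2:**
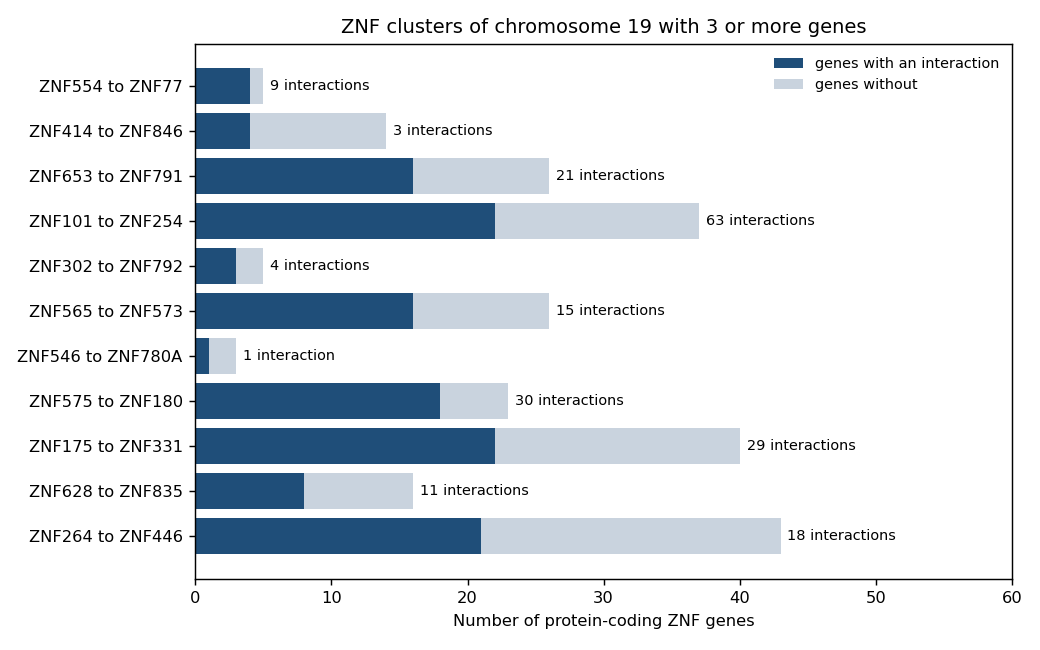
Number of protein-coding ZNF genes (x axis) in each of the 11 clusters with at least 3 genes (y axis, by first and last gene, in chromosomal order), split into genes with an interaction (dark) and without (light), with the number of interactions beside each bar. ZNF101 to ZNF254 held 63 interactions, ZNF414 to ZNF846 held 3 over 14 genes.

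Some interactions had ZNF genes at both bins, a share that depends on the width of the gene windows. Both bins lay at ZNF genes in 88 of the 216 interactions (40.7%, 34.4 to 47.4). With the gene body alone the share was 24%, and no share expected from the spacing of the windows was computed. In 83 of the 88 interactions the bins lay at different genes of the same cluster. Their median distance was 230 kb. In 3 interactions both bins lay at the same gene window, and 2 joined different clusters, over 1460 and 2880 kb. Interactions inside a cluster were most frequent from ZNF101 to ZNF254 (26), from ZNF653 to ZNF791 (16 of its 21) and from ZNF175 to ZNF331 (15). Interactions were listed only up to 3 Mb, so that clusters lying farther apart could not be joined.

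The other 128 interactions had a ZNF gene at 1 bin. The opposite bin overlapped another protein-coding gene in 60 (46.9%), a non-coding gene or pseudogene alone in 28 (21.9%) and no annotated gene in 40 (31.3%).

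The contact counts of the ZNF interactions ran close to those of the other 462 of chromosome 19, and their distances less so. The median distance was 267.5 kb (95% interval of the median 230 to 330; quartiles, 110 and 652.5 kb), against 187.5 kb (170 to 225) for the others and 255 kb in the whole list. The median was thus above that of the rest of chromosome 19 and near that of the whole list. The median contact count was 23 (20 to 24), against 24 (23 to 25). The largest contact count was 58, against 92, and the largest sumCC was 66, against 209. Single bin pairs without merged neighbors made up 97.2% (210 interactions), against 92.2%. A q-value under 1e-05 was listed for 60.2% (53.5 to 66.5), against 69.0% (64.7 to 73.1). Distances over 1 Mb made up 16.2% (35 interactions), against 14.1%.

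**Figure D3:**
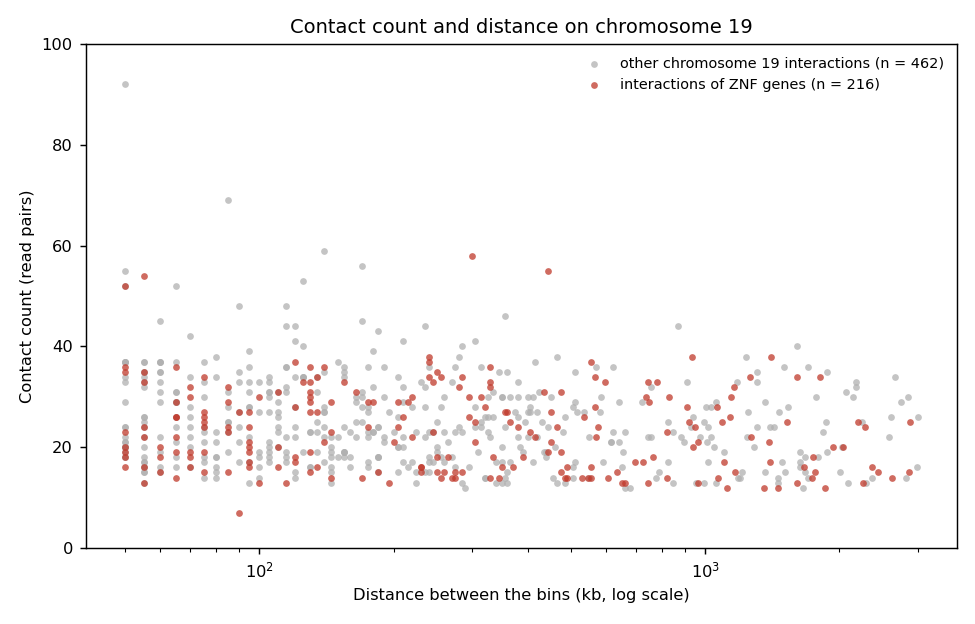
Contact count in read pairs (y axis) against the distance between both bins in kb (x axis, log scale) for the 216 interactions of ZNF genes (red) and the other 462 of chromosome 19 (gray), 1 point per interaction. The clouds overlap, with medians of 23 and 24 read pairs, and the highest ZNF point is at 58 read pairs and 300 kb.

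Similar sequence in both bins of an interaction could make reads align to the wrong copy, and duplicated genes are a place to look for it. The number of 31-base words that both bins share on either strand was counted in hg38. None of the 216 interactions reached 500 shared words or even 100 (3 counts, the limit that a count of 0 allows, would be a share of 1.39%, and the Wilson upper limit is 1.75%), and the highest number was 96. Diverged copies fall below both limits. The bins at ZNF675, ZNF726 and ZNF254, compared below, aligned in part at 81.5 to 89.3% identity. They shared only 36 to 85 words pairwise, so the count of 0 does not cover such copies. At least 1 shared word was found in 46.3% (39.8 to 53.0), against 65.2% (60.7 to 69.4) of the other interactions of chromosome 19. The most shared words were found at ZNF91 (96, contact count 14), ZNF556 (92, contact count 34) and ZNF77 (84, contact count 29), followed by the bin at ZNF345 and ZNF790 (84) and that at ZNF260 (57). In each of these interactions only 1 of the bins lay at a gene with a ZNF symbol. For ZNF345 and ZNF790 and for ZNF260, the opposite bin overlapped ZFP82, another C2H2 zinc finger gene. Their longest identical runs were between 52 and 83 bases. The median share of 31-base words that occur only once on chromosome 19 was 85.7% in bins at ZNF genes with an interaction and 84.9% in those without. Reads that were discarded because they align to several places are not seen in the list, and their part in the number of interactions was not tested.

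The interaction with the largest contact count joined the promoter of ZNF682 (chr19:20035001-20040000) to a bin without an annotated gene 300 kb away, with 58 read pairs (44 to 75, FitHiChIP binomial p = 6.13e-40). This was 2.52 times the median of the 247 listed interactions at the same distance. The next involved XRCC1, a DNA repair gene, whose bin was joined to the ZNF155 and ZNF230 bin with 55 read pairs over 445 kb (binomial p = 1.61e-32) and to the ZNF428 promoter with 54 over 55 kb (p = 2.21e-26). ZNF799 was joined to ZNF709 with 52 read pairs over 50 kb (binomial p = 1.31e-26). These 4 stood apart from all later ones, since the next contact count was 38. It was reached 3 times, by ZNF682 with a partner at 240 kb, by the bin of ZNF526 with one at EGLN2 over 1405 kb (binomial p = 1.58e-23) and by an interaction that joined the ZNF382 promoter, at a bin also near ZNF529, to the bin of ZNF793, ZNF540 and ZNF571 over 935 kb (binomial p = 1.91e-22). ZNF98 had 33 read pairs over 55 kb with a lower P value than its count alone would rank (binomial p = 2.75e-24).

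The largest sumCC was 66, for the interaction of the ZNF155 and ZNF230 bin with the ZNF225 promoter, whose own contact count was 37. That of ZNF613 and ZNF350 with ZNF614 and ZNF432 followed at 64. The longest interaction, over 2880 kb, joined a bin at the ZNF611 promoter to the promoters of ZNF524 and ZNF865 with 25 read pairs (16.2 to 36.9). Long interactions with fewer read pairs were found at ZNF682 (2860 kb, 15 read pairs), ZNF675 (2625 kb, 14), ZNF573 (2445 kb, 15) and ZNF136 (2370 kb, 16).

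Members with a known role were reached to different extents. ZNF91, which silences retrotransposons, had 7 interactions with contact counts from 14 to 30, whereas ZNF93, with a related role, had none. ZNF274, which recruits SETDB1 to zinc finger genes, had 1 with a contact count of 25. ZNF350, a BRCA1 partner, had 4, ZNF382 had 2, ZNF224 and ZNF180 had 1 each, and ZNF154 and the imprinted ZNF331 had none.

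A bin within 1 kb of an annotated transcript start of a ZNF gene was present in 80 of the 216 interactions, in 10 of them at both bins. These promoters belonged to 45 genes. In 34 of the 80 (42.5%, 32.3 to 53.4), the bin opposite a promoter held an exact HLF motif, and these concerned 26 genes. The motif was found in 33.3% (26.7 to 40.7) of all ZNF bins with an interaction, a share that counts each ZNF bin once. The 42.5% counts interactions, and its opposite bins include bins away from ZNF genes and bins counted more than once. The shares are therefore not of like units. The same share for promoters of other genes of chromosome 19 was not computed. Whether 42.5% lies above or below it is therefore not known. The 26 genes included ZNF682, ZNF91, ZNF230, ZNF45, ZNF225, ZNF442, ZNF709, ZNF547, ZNF671, ZNF610, ZNF836 and ZNF888. No value on transcript levels was used, so a change in expression of these genes was not examined.

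The share of 5-kb bins that were part of an interaction was similar in and out of the ZNF windows. It was 7.61% (171 of 2246, 6.59 to 8.78) around ZNF genes and 7.07% (668 of 9443, 6.57 to 7.61) in the rest of chromosome 19. The exact HLF motif had a higher share around ZNF genes both in bins with an interaction and in bins without. It was found in 33.3% (57 of 171, 26.7 to 40.7) of interacting ZNF bins and 26.4% (548 of 2075, 24.6 to 28.3) of the others. In the rest of chromosome 19 it was found in 18.7% (15.9 to 21.8) and 13.5% (12.8 to 14.3). Over all bins the shares were 26.9% and 13.9%. Base composition moved with this: the median G+C content was 43.5% and 43.3% in the ZNF bins, against 49.9% and 49% elsewhere, and its part in the motif share was not tested.

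The motif share was highest in the most connected bins. It was 30.6% in ZNF bins with 1 interaction (41 of 134), 28.0% with 2 to 4 (7 of 25) and 75% with 5 or more (9 of 12, 46.8 to 91.1). In other bins of chromosome 19 it was 14.6%, 29.0% and 51.4% (18 of 35, 35.6 to 67.0). The intervals of both sets overlap at 5 or more interactions, and only 12 ZNF bins stand behind the highest share. Median G+C content in the 12 bins was 42.1%.

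**Figure D4:**
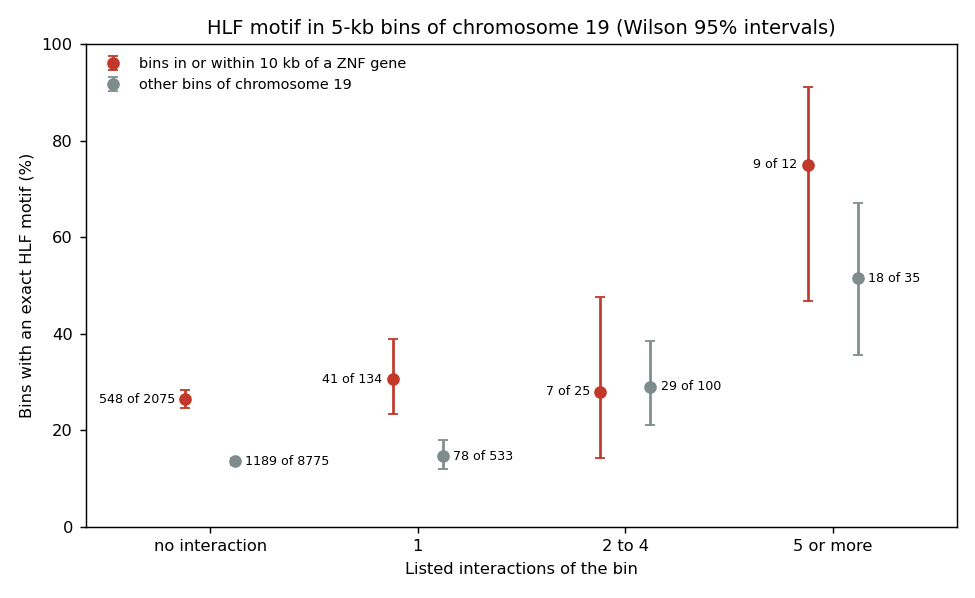
Share of 5-kb bins with an exact HLF motif in percent (y axis) by the number of listed interactions of the bin (x axis), for bins in or within 10 kb of a ZNF gene (red) and other bins of chromosome 19 (gray), with Wilson 95% intervals and the counts behind each point. ZNF bins lie higher at 0 and 1 interaction, and the share reaches 75% in the 12 ZNF bins with 5 or more.

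Counted by interaction, a motif lay at 1 or both bins of 147 of the 216 (68.1%, 61.6 to 73.9), against 231 of 462 (50%, 45.5 to 54.5). Interactions at a bin with 5 or more interactions, whether at a ZNF gene or not, had a motif in 97 of 121 cases (80.2%, 72.2 to 86.3), against 138 of 221 among the others (62.4%, 55.9 to 68.6). Those at no such bin had one in 50 of 95 (52.6%, 42.7 to 62.4), against 93 of 241 (38.6%, 32.7 to 44.9). Interactions at 1 bin share its sequence, so a motif there counts for all of them. Across clusters the motif was present in 55 of 63 interactions from ZNF101 to ZNF254, but in 3 of 15 from ZNF565 to ZNF573.

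The 12 connected bins reached in different directions and over different ranges. The bin upstream of ZNF799 had 11 partners between 50 and 1065 kb away, with contact counts from 16 to 52. Of these, 10 lay at other genes of its cluster, namely ZNF136, ZNF44, ZNF442, ZNF563, ZNF564, ZNF490 and ZNF20, with 3 in the ZNF709 window alone. The remaining partner was the RAB3D bin.

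The ZNF682 bin held the gene's promoter and reached 10 partners between 240 and 2860 kb away, of which 7 lay downstream in chromosome coordinates. They included the ZNF101 promoter (27 read pairs), ZNF66 (33) and ZNF100 (14), besides the non-ZNF genes LPAR2 (22), a lysophosphatidic acid receptor, and GATAD2A (14), a subunit of the NuRD complex. The strongest partners, with 58, 38 and 37 read pairs, lay at no ZNF gene.

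The ZNF83 bin, inside an intron of the gene, had 10 partners with contact counts from 14 to 30, including the promoters of ZNF610, ZNF836 and ZNF888. The ZNF329 bin overlapped ZSCAN18, a neighboring SCAN zinc finger gene, and 9 of its 10 partners lay upstream in chromosome coordinates, among them the promoters of ZNF547 (29 read pairs) and ZNF671 (18). Its partner on the other side was ZNF274 (25), 75 kb away.

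Bins near ZNF283, ZNF155 and ZNF230 lay in the cluster from ZNF575 to ZNF180. The ZNF283 bin overlapped LYPD5 and held no exact motif, but had 9 interactions. Of the adjacent pair of bins at ZNF155 and ZNF230, one held 2 motifs and had 8 interactions and the other held none and had 6. Their partners ran from CEACAM5, 2280 kb away (24 read pairs), through XRCC1, KCNN4 and SMG9 to the promoters of ZNF45, ZNF225 and ZNF223. The ZNF175 bin, which lies next to the SIGLEC genes of immune cell receptors, had 7 partners, all within 475 kb, with SIGLEC8 (33 read pairs) and SIGLEC6 (18) among them and no ZNF gene.

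The remaining 4 connected bins lay in the cluster from ZNF101 to ZNF254. The ZNF675 bin, just past the 3′ end of the gene, had 9 partners, among them ZNF724 (34 read pairs), both a bin in ZNF91 (30) and its promoter (18), and a bin in ZNF675 itself 130 kb away (29). The first ZNF254 bin, without an exact motif, had 7 partners, with the ZNF91 promoter (30 read pairs), ZNF730 (13) and different bins at ZNF726 (27 and 23). The second ZNF254 bin, with 2 motifs, had 6 partners, all upstream, led by RPSA2 (37 read pairs over 240 kb) and a bin without an annotated gene (30 over 100 kb). The ZNF430 bin held 4 exact motifs, the most of the 12, but had the fewest interactions among them, with 5. Its partners included ZNF714 (26 read pairs), ZNF429 (15) and GATAD2A (13).

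**Figure D5:**
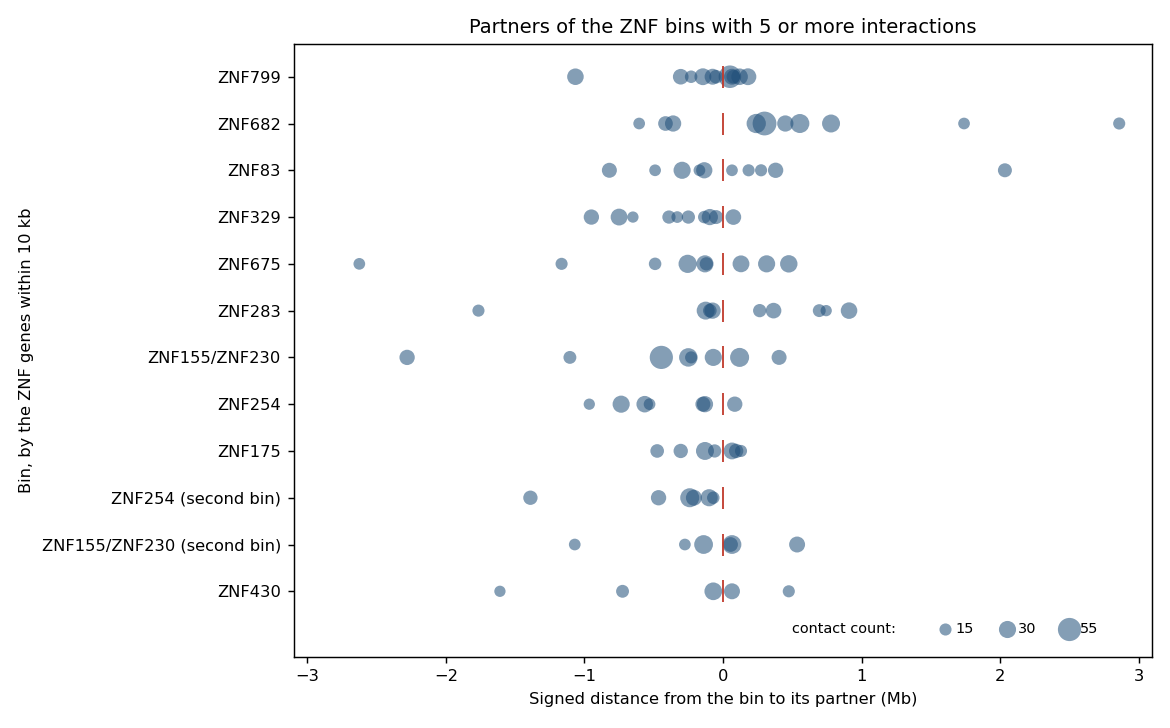
Signed distance in Mb (x axis) from each of the 12 ZNF bins with 5 or more interactions (y axis, named by the ZNF genes within 10 kb) to its partners, 1 point per interaction with area scaled to the contact count and a red tick at the bin itself. The ZNF799 bin has 10 of 11 partners within 305 kb, the ZNF682 bin reaches 2860 kb.

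Since the genes are duplicated, the surroundings of the motif in these bins were searched for copies. The comparison was chosen after the values were seen and is a description. A 120-base window around each of the 16 motifs in the 9 bins was compared with all of chromosome 19 at 70% identity or more. Copies were found for 9 of the motifs and none for 7. The ZNF675 window had 2 copies, at ZNF726 and at ZNF254, shown in the orientation of the ZNF675 motif, with the motif or its counterpart in capitals:
ZNF675, chr19:23515730-23515849, plus strand: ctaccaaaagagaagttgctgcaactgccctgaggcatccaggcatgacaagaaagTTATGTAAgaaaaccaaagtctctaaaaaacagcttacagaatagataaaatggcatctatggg
ZNF726, chr19:23911680-23911799, minus strand: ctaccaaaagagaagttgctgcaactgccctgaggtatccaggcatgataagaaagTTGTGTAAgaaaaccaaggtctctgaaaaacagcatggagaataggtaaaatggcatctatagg
ZNF254, chr19:24081192-24081311, minus strand: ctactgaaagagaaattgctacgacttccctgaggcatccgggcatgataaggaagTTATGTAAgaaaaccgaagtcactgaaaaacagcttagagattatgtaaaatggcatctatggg

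The ZNF726 window differed from that of ZNF675 at 10 of 120 bases (91.7% identical), and within the motif by A3G, counted from 1 at the first base of the ZNF675 motif. The ZNF254 window differed at 16 bases (86.7% identical), kept the motif and held a further exact match. The ZNF675 bin had 9 interactions, the ZNF254 bin 6 and the ZNF726 bin 0. Over the whole 5-kb bins, ZNF675 and ZNF726 aligned over 2493 bases at 89.3% identity, and ZNF675 and ZNF254 over 1729 bases at 88.1%. The copy closest to ZNF675 in sequence had the changed motif and no interaction. Having none was the usual state, at 2075 of the 2246 bins around ZNF genes. The ZNF675 and ZNF254 bins were chosen for having 5 or more interactions and the ZNF726 bin was not. A link between the changed base and the missing interaction was not tested. ZNF675 and ZNF254 lie in the same cluster, and neither bin was listed as a partner of the other, although the bin beside the ZNF675 one was joined to ZNF254 with 28 read pairs over 565 kb.

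The other motifs did not all show this arrangement. The ZNF682 window had 1 copy, 73.3% identical, which kept the motif and had no interaction. The 3 copies of the ZNF83 window and both copies of the ZNF799 window lacked the exact motif, and 1 of these 5 lay in a bin with an interaction. Over all windows, copies outside the bin of origin numbered 76 with an exact motif, of which 10 lay in bins with an interaction, and 99 without one, of which 4 did. Of the 10, 2 were the ZNF675 and ZNF254 bins, each counted as a copy of the other. Both had been chosen for having 5 or more interactions, and 1 of the 4 also lay in such a bin. Of the 76, 71 came from 1 window at ZNF430, whose copies are spread over chromosome 19. Another ZNF430 window had 77 copies, of which 2 held an exact motif. Copies with and without the motif thus came mainly from different windows, so these counts do not compare them within 1 sequence.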

How the data were processed

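TCF3::HLF-HiChIP was done in TCF3-KO HAL-01 cells, as 2 replicates of 1 condition. Reads were trimmed by the authors with Trim Galore (0.6.6 in the submitters' processing notes), merged the replicates, aligned to hg38 with BWA-MEM, extracted pairs with pairtools parse without removal of duplicates, called peaks with MACS2 and called interactions with FitHiChIP (version not given in the sources used here) between 5-kb bins 50 kb to 3 Mb apart at q under 0.01, with merging of nearby contacts. Duplicate pairs can raise contact counts, and reads that align to several places, as in duplicated genes, can be dropped or misplaced. The deposited contact count and sumCC are unnormalized counts of read pairs. The P value and q-value are those the authors deposited from FitHiChIP. A fraction that the authors deposited, not used for any value here, is the share of bin pairs in each merged group that were significant.

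From the list, genes (GENCODE release 44), clusters, distances, motifs (exact TTACGTAA or TTATGTAA, both strands) and shared 31-base words were computed on hg38, after a check that 0 bins lay past a chromosome end. Bins made mostly of unknown bases were left out. Shares have Wilson, single contact counts exact Poisson and medians order-statistic 95% intervals. No comparison between groups was possible, and no test was run over genes, bins or interactions. The overlap, motif and shared-word steps were tested on simulated data. Alternatives were q under 0.001 and 1e-05, distances no longer than 1 Mb, contact counts from 20 upward, other gene windows, cluster gaps, promoter windows and limits on shared words.

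The members and gene lists were chosen with earlier results of these data known. Named genes were the most connected ones, those at the extreme interactions by contact count, P value, sumCC, distance and shared words, the ends of each cluster and a list of members with known roles. The bins with 5 or more interactions, their partners and their sequence copies were chosen after their values were seen. Python 3.11.15 was used with scipy 1.17.1, pandas 2.3.3, numpy 2.4.6 and, for the plots, matplotlib 3.10.9.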

Additional observations from a re-analysis of the deposited data

How the results depend on the processing

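No paired analysis was possible because the list holds 1 condition with both replicates merged, and for the same reason leaving out a replicate could not be tried. Of 63 alternative values, 51 stayed close to the reported one (a count within 1.5 times, another value within its 95% interval) and 12 moved. Some of the 51 could not move. Leaving out bin pairs that share 500 or more words removed no interaction. The share of near-identical bins, at 0, could not change when interactions were only removed. At q under 0.001 the median contact count was 25 and the share of bins around ZNF genes with an interaction 6.41%. At q under 1e-05 there were 130 ZNF interactions, with a median contact count of 28 and a bin share of 5.08%. At a contact count of at least 20 there were 129, with 28 and 4.99%. These follow from keeping fewer and stronger interactions. With the gene body alone, 89 genes were reached in place of 140 and 24% of interactions had both bins at ZNF genes in place of 40.7%. The number of genes reached was 188 with a window of 25 kb, 102 at q under 1e-05 and 104 at a contact count of at least 20. Up to 1 Mb the median distance was 215 kb, and with 10 kb around a start 181 interactions held a ZNF promoter in place of 80. The lowest contact count of a ZNF interaction over 1 Mb was 12, and contacts weaker than those listed could not be examined.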
